A study of Mus musculus with 13 samples.

Results

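The 7 genes described here, Adamts2, Tmem132d, Csmd2, Piezo2, Gm816, Dcc and Pde4d, were selected by measured values. An earlier analysis of these same libraries had found them lower in oligodendrocyte-like nuclei of food-restricted old mice than of freely fed old mice, and they are 7 of the 32285 genes in the count matrices. Their fall under restriction in that class is therefore a description with no test. Tests bear only on nuclei of other classes and on genes that were not selected. The lists of such genes were drawn up with earlier results of these data known, so their p-values are not independent of that analysis. Threshold counts of the 7 genes in the selecting class are printed to describe how they vary with the processing.

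Oligodendrocytes are the myelinating glia of the central nervous system. They arise from dividing oligodendrocyte precursors, pass through a short-lived committed stage, and then wrap axons in membrane rich in proteins such as myelin basic protein and proteolipid protein. The selected genes have no single function in common. They encode a procollagen-cutting protease, large surface proteins of neurons and glia, a stretch-activated ion channel, an axon guidance receptor, an enzyme that breaks down cyclic AMP and a long non-coding RNA.

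The samples were whole frozen hippocampus from 13 female mice of a hybrid strain written C3B6F1 in the design text and C3HB6F1 in the sample labels, with 1 single-nucleus library per mouse. Young mice (n = 3) were 5 months old and fed ad libitum, and old mice (n = 3, numbered 1, 2 and 4) were 24 months old and fed ad libitum. Acutely restricted mice (n = 3) were 24 months old and under dietary restriction from 20 months of age, and long-term restricted mice (n = 4) were 24 months old and restricted from 5 months. No mutation or agent is named for any group, and no young restricted mice were analysed here. The libraries held 38546292 to 80538090 unique molecular identifiers (UMIs, each counting 1 captured RNA molecule). After filters, 98041 nuclei remained, of which 82454 fell in clusters that could be named from marker genes.

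Oligodendrocyte-like nuclei were 10012 nuclei in 2 clusters, which raised all 12 of the 12 markers fixed for the class. The larger cluster had 7774 nuclei and the smaller 2238. Gm816 stood among the 10 leading genes of the smaller cluster, so its level there is part of how that cluster is recognised. Only 2 of the 7 genes were among the 2000 variable genes used for clustering, and clustering without them gave 1 oligodendrocyte-like cluster of 10011 nuclei with the same number of calls among the 7 genes in each comparison. The libraries numbered 1 held few of these nuclei, from 48 in young mouse 1 to 183 in long-term mouse 1, and the other libraries held 624 to 1651. The depth of the nuclei differed between groups: the median UMIs per nucleus ran from 1181 to 1743 in young libraries, 1988 to 3169 in old ad libitum, 1578 to 1889 in acutely restricted and 1673 to 2300 in long-term restricted libraries. In sums over nuclei, fewer nuclei of a kind within the class and less RNA per nucleus cannot be told apart.

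In the mm10 build that the submitters name (GRCm38, GENCODE M21 annotation), all 7 loci are long, and the median span of the genes tested in this class was 29.3 kb. Adamts2 lies on chr11:50602084-50807573, plus strand, over 205.5 kb. Tmem132d lies on chr5:127781630-128433077, minus strand, over 651.4 kb. Csmd2 lies on chr4:127987857-128567656, plus strand, over 579.8 kb. Gm816, annotated as a long intergenic non-coding RNA, lies on chr1:76890472-77027792, minus strand, over 137.3 kb. Pde4d lies on chr13:108449948-109953461, plus strand, over 1503.5 kb. Piezo2 and Dcc span 377.0 kb and 1097.4 kb. How intronic reads and strand were handled in counting is not given in the sources used here. Adamts2, Tmem132d and Csmd2 overlap 3, 1 and 2 genes of the matrix on the opposite strand, and Csmd2 also 1 on its own strand. Whether reads of those genes add to their counts where they overlap was not tested.

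The RefSeq promoter table (GRCm38.p6) held 2 of the 7 genes, whose promoters are printed as 250 bases before the RefSeq start as the members with an entry there. No motif searched is contained in another. Capitals mark a match to any of 5 motifs searched on both strands: TGTTCT (glucocorticoid receptor element core), GTAAACA (forkhead), AACAAAG (SOX), CACGTG (E-box) and TGACG (cyclic AMP response element core).
Adamts2, chr11:50601835-50602084, plus strand: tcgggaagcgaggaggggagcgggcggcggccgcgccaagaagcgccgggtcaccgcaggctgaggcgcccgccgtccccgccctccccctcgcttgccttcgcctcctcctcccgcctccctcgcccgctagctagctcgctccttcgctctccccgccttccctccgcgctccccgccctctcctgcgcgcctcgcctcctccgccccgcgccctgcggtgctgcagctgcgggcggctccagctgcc
Pde4d, chr13:108653927-108654176, plus strand: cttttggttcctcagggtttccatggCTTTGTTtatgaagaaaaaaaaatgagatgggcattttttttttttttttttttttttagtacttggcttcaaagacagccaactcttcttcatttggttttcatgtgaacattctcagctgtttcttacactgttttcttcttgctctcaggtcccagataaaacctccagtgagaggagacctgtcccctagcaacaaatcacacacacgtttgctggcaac
The Adamts2 window was 78.0% G and C and held none of the 5 motifs. The Pde4d window, which starts from a transcript start inside the GENCODE gene, was 38.8% G and C and held 1 SOX match on the opposite strand. Of all 32851 RefSeq promoter windows, 5.03% held the SOX motif, 16.1% the glucocorticoid receptor element core, 3.17% the forkhead motif, 6.02% the E-box and 17.8% the cyclic AMP element core. A match is a description of letters and not of binding.

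Adamts2 encodes a secreted metalloprotease that removes the amino-terminal propeptide of fibrillar procollagens. In oligodendrocyte-like nuclei its level was 102, 93.2 and 101 CPM (UMI counts scaled to a common library size) in old ad libitum mice 1, 2 and 4. It was 19.0, 33.8 and 28.8 CPM in acutely restricted mice 1 to 3, and 19.4, 27.7, 45.3 and 27.1 CPM in long-term restricted mice 1 to 4. Young mice 1 to 3 had 68.2, 94.6 and 118.5 CPM. Every restricted mouse lay below every freely fed mouse, young or old, and the young and old freely fed mice overlapped. The log2 fold change against old ad libitum mice was -1.60 ± 0.193 (SE) under long-term and -1.69 ± 0.211 under acute restriction.

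Csmd2 encodes a large transmembrane protein with CUB and sushi domains. Its level was 293, 208 and 219 CPM in old ad libitum mice 1, 2 and 4, and 83.6, 105 and 115 CPM in acutely restricted mice 1 to 3. Long-term restricted mice 1 to 4 had 81.0, 114, 124 and 119 CPM, and young mice 1 to 3 had 146, 193 and 241 CPM. As with Adamts2, the restricted mice all lay below the freely fed mice of both ages. The log2 fold change was -1.04 ± 0.150 under long-term and -1.14 ± 0.165 under acute restriction.

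Dcc encodes the receptor for the guidance protein netrin-1. Its level was 1066, 799 and 807 CPM in old ad libitum mice 1, 2 and 4, and 1033, 638 and 888 CPM in young mice 1 to 3. Acutely restricted mice 1 to 3 had 300.2, 349 and 407 CPM, and long-term restricted mice 1 to 4 had 479.6, 523, 512 and 578 CPM. The restricted mice again lay below all freely fed mice, and the acutely restricted mice lay below all long-term restricted mice. The log2 fold change was -0.75 ± 0.139 under long-term and -1.30 ± 0.154 under acute restriction.

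Gm816 is a long non-coding RNA for which no function is stated here. Its level was 164, 143 and 158 CPM in old ad libitum mice 1, 2 and 4, and 39.0, 64.2 and 97.2 CPM in young mice 1 to 3. Acutely restricted mice 1 to 3 had 26.6, 31.5 and 52.3 CPM, and long-term restricted mice 1 to 4 had 61.6, 46.5, 51.9 and 88.3 CPM. Old freely fed mice stood above every other mouse, and the restricted mice overlapped the young. Its log2 fold change was -1.31 ± 0.217 under long-term and -1.94 ± 0.248 under acute restriction.

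Pde4d encodes a phosphodiesterase that hydrolyses cyclic AMP. Its level was 1187, 953 and 975 CPM in old ad libitum mice 1, 2 and 4, and 546, 499 and 610.2 CPM in young mice 1 to 3. Acutely restricted mice 1 to 3 had 555, 463 and 505 CPM, and long-term restricted mice 1 to 4 had 684, 606, 637 and 834 CPM. Restricted mice overlapped the young mice under both diets, the long-term mice were higher than the acute mice without overlap, and old freely fed mice were above all others. Against old ad libitum mice, its log2 fold change was -0.58 ± 0.124 under long-term and -1.04 ± 0.137 under acute restriction.

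Tmem132d encodes a single-pass membrane protein of the TMEM132 family. Its level was 346, 309.6 and 279 CPM in old ad libitum mice 1, 2 and 4, and 136, 191 and 279 CPM in young mice 1 to 3. Acutely restricted mice 1 to 3 had 133, 98.1 and 138 CPM, and long-term restricted mice 1 to 4 had 211, 163, 148 and 172 CPM. Young mouse 3 (278.9 CPM) lay just below old ad libitum mouse 4 (279.5 CPM), the restricted mice overlapped the young, and the acutely restricted mice lay below the long-term mice. Its log2 fold change was -0.87 ± 0.157 under long-term and -1.36 ± 0.176 under acute restriction.

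Piezo2 encodes a mechanically activated cation channel known for its part in touch and proprioception, and it had the fewest molecules of the set. The 3 old ad libitum libraries held 8, 101 and 158 UMIs (21.5, 29.8 and 62.4 CPM), the acutely restricted libraries 1, 25 and 7 (3.80, 7.96 and 3.10 CPM), and the long-term restricted libraries 1, 6, 8 and 1 (3.24, 2.97, 4.07 and 0.588 CPM). Young mice 2 and 3 had 21.4 and 23.3 CPM. Young mouse 1 had 0 UMIs among 92854, which allows up to 32.3 CPM (3 counts). Over pooled UMIs, 16 in long-term restricted against 267 in old ad libitum mice, the ratio per UMI sequenced was 0.0632 with an exact 95% counting interval of 0.0356 to 0.105, and for acute restriction, with 33 UMIs, it was 0.143 (0.0962 to 0.205). The fitted log2 fold changes, -3.93 ± 0.453 and -2.85 ± 0.426, rest on these few molecules and depend on the prior count. With 1 mouse left out in turn they ran from -4.34 to -3.30 and from -3.67 (without acute mouse 2) to -2.22 (without old ad libitum mouse 4).

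**Figure D1:**
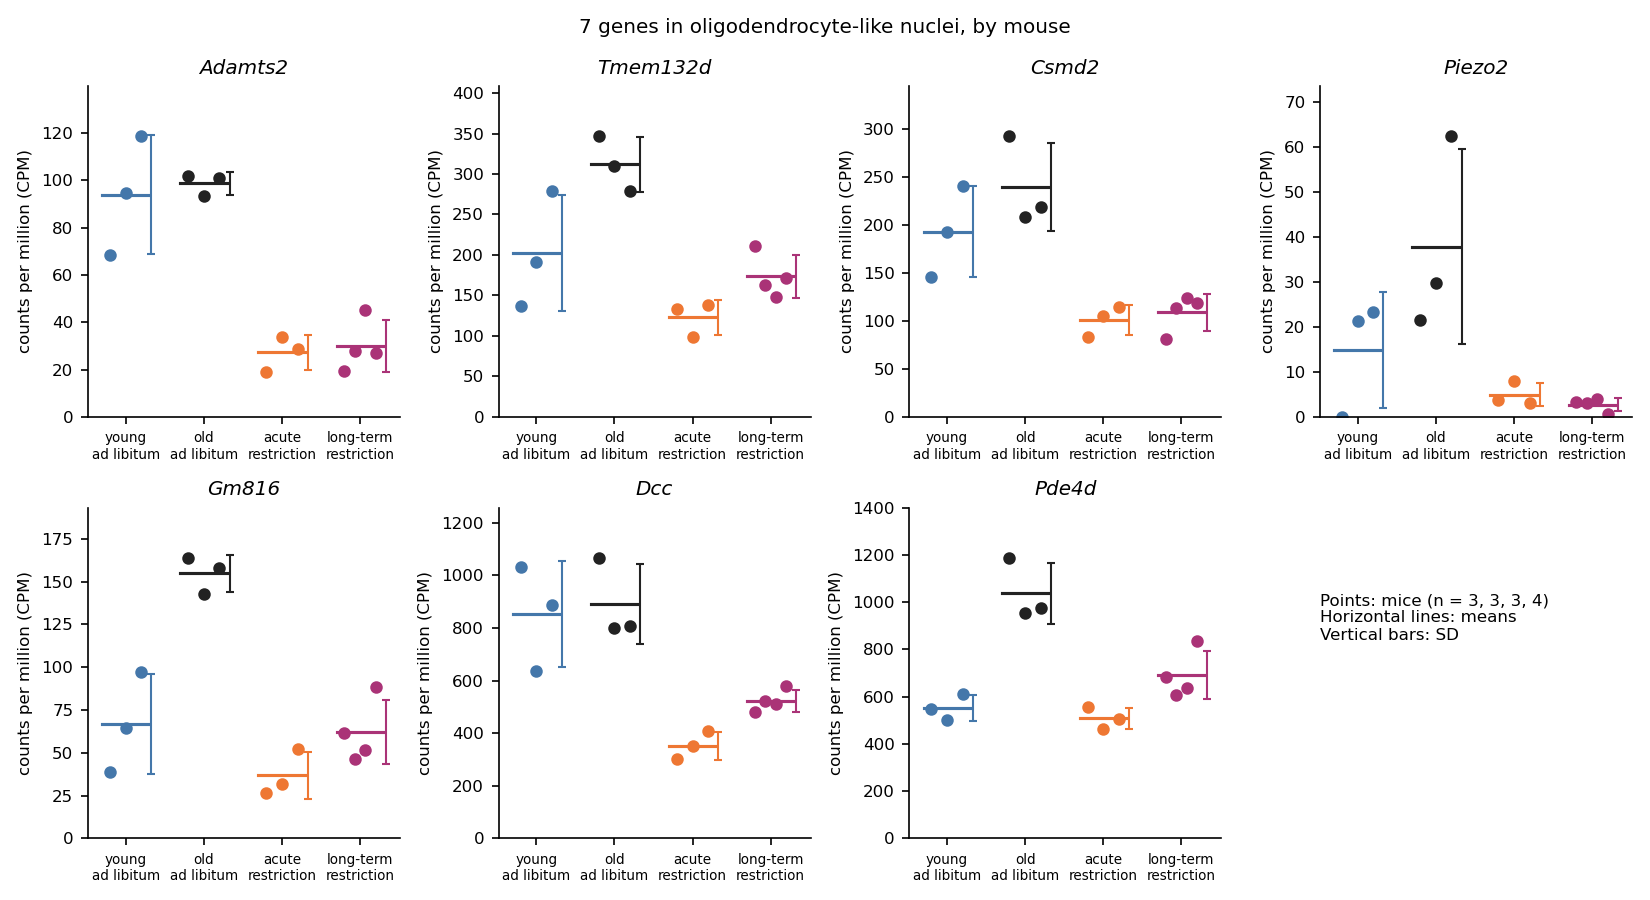
Levels of the 7 genes in oligodendrocyte-like nuclei in CPM on linear axes that start at 0, with 1 point per mouse, group means as horizontal lines and SD as vertical bars. In each panel all restricted mice lie below all 3 old ad libitum mice, by which the genes were chosen. The young and old freely fed mice overlap for Adamts2, Csmd2, Dcc and Piezo2. For Gm816, Pde4d and Tmem132d every old mouse lies above every young one. The share of all genes tested that separate young from old mice was not counted, so nothing is read from this.

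The selection fixed that the 7 genes lie low in both comparisons, which share the same 3 old ad libitum libraries, and nothing is read from their calls there. All 7 were past edgeR's adjusted p of 0.05 under both diets, where 0.22% of the 11375 genes tested were called lower under long-term and 1.05% under acute restriction. All 7 had restricted mice below old ad libitum mice without overlap, as had 4.94% of the genes tested under long-term and 10.3% under acute restriction. The median over the 7 genes was -1.04 under long-term and -1.36 under acute restriction, beside medians of 0.00 and -0.01 over all genes tested. With the median UMIs per nucleus as a covariate, 3 of the 7 genes (Adamts2, Csmd2 and Piezo2) passed under long-term restriction; the other 4 had log2 fold changes of -0.89 (Tmem132d), -1.26 (Gm816), -0.54 (Dcc) and -0.49 (Pde4d). The same 3 passed without old ad libitum mouse 2, without old ad libitum mouse 4 or without long-term mouse 2. Without old ad libitum mouse 2 the other 4 were at -0.84 (Tmem132d), -1.35 (Gm816), -0.80 (Dcc) and -0.61 (Pde4d). Without old ad libitum mouse 4 they were at -0.91, -1.25, -0.78 and -0.59 in the same order, and without long-term mouse 2 at -0.84, -1.16, -0.74 and -0.52. Dcc and Pde4d came nearest to 0 without old ad libitum mouse 1, at -0.60 and -0.47, and neither passed there.

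The 7 genes separated by their level in young mice, given as a description because the old ad libitum mice also served the selection. From young to old ad libitum mice the log2 fold change was -0.07 ± 0.206 for Adamts2, 0.09 ± 0.154 for Dcc and 0.17 ± 0.167 for Csmd2. It was 0.99 ± 0.257 for Gm816, 0.90 ± 0.141 for Pde4d, 0.48 ± 0.177 for Tmem132d and 1.00 ± 0.415 for Piezo2. The Piezo2 value ran from 0.39 to 1.23 with 1 mouse left out in turn. Gm816 and Pde4d, 2 of the 7, were past adjusted p of 0.05, where 7.82% of genes were. These are values of the whole class, whose mix of the 2 clusters differs between libraries. In the smaller cluster alone the value was 0.07 for Gm816, 0.31 for Pde4d and -0.11 for Piezo2, none past the threshold. With neuronal RNA as a covariate Piezo2 was at -0.02, Adamts2 at -0.64, Csmd2 at 0.04 and Tmem132d at 0.65. Neuronal RNA was lower in every young than in every old ad libitum library, so that fit cannot tell it from age. Across the processing settings the ageing value ran from 0.07 to 1.51 for Gm816 and from -0.06 to 1.20 for Pde4d. For Adamts2, Csmd2 and Dcc the restricted mice lay below the young mice without overlap under both diets, as did 5.48% of the genes tested under long-term and 8.53% under acute restriction. For the other 4 genes the restricted and young ranges overlapped under both diets. This overlap rested on young mouse 1 alone for Piezo2 under both diets, and for Gm816 and Tmem132d under acute restriction. That library held 48 nuclei of the class and 0 Piezo2 UMIs, so it sets these genes apart only weakly.

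The ageing values of the longest genes moved with gene length. Across 11370 genes with a known span, Spearman's rho between span and the log2 fold change was 0.488 from young to old, -0.165 under long-term and -0.205 under acute restriction; genes are not independent replicates. With the length trend of each library removed, the ageing fold change became -0.82 for Dcc, -0.50 for Csmd2, -0.46 for Adamts2, -0.22 for Tmem132d and -0.06 for Pde4d, where the values without removal were 0.09, 0.17, -0.07, 0.48 and 0.90. Gm816 (0.70) and Piezo2 (0.49) stayed above 0. In that fit, as a description with no test, Dcc and Csmd2 were past the threshold as lower with age. Gm816 and Pde4d were not past it in that fit. The direction of some ageing values thus depends on this step, and it is not the only such step. Median UMIs per nucleus did not overlap between young (1181 to 1743) and old ad libitum libraries (1988 to 3169). A fit with them as a covariate therefore cannot tell age from depth. With this covariate, the ageing value was -0.29 for Csmd2 and -0.51 for Adamts2. Tmem132d (0.54), Gm816 (0.81) and Piezo2 (0.81) stayed above 0 in that fit. Under acute restriction the values with the trend removed ran from -2.68 (Piezo2) to -0.65 (Pde4d). Under long-term restriction Dcc (-0.38), Pde4d (-0.16) and Tmem132d (-0.58) no longer passed, and Adamts2 (-1.49), Csmd2 (-0.78), Gm816 (-1.24) and Piezo2 (-3.77) did.

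Between the diets, the long-term minus acute log2 difference was 0.63 ± 0.248 for Gm816, 0.55 ± 0.145 for Dcc, 0.49 ± 0.169 for Tmem132d and 0.46 ± 0.129 for Pde4d. It was 0.11 ± 0.158 for Csmd2, 0.09 ± 0.219 for Adamts2 and -1.07 ± 0.620 for Piezo2, which was -0.25 without acute mouse 2. Dcc, Tmem132d and Pde4d were higher in every long-term than in every acutely restricted mouse, as were 3.64% of the genes tested, and the other 4 genes overlapped. Duration and age at onset of the diet differ together between these groups, so their parts cannot be told apart.

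Under both diets, the fold changes that could be tested within the 2 oligodendrocyte-like clusters had the same direction as in the class; Piezo2 was not tested in the larger cluster. In the larger cluster the 6 genes that could be tested had log2 fold changes of -1.70 (Adamts2) to -0.54 (Pde4d) under long-term and -2.04 (Gm816) to -0.82 (Pde4d) under acute restriction. In the smaller cluster the 7 genes ran from -3.70 (Piezo2) to -0.49 (Pde4d) and from -2.31 (Piezo2) to -0.90 (Pde4d). Piezo2 was largely a gene of the smaller cluster, at 88.3 ± 32.7 CPM (SD, n = 3) in old ad libitum mice beside 7.50 ± 9.14 in the larger cluster, and in the smaller at 6.04 ± 6.64 in long-term restricted mice (n = 4) and 17.6 ± 10.6 in acutely restricted mice (n = 3). Pde4d was 1593 ± 196 CPM in the smaller and 726 ± 88.6 in the larger cluster of old ad libitum mice, and Tmem132d 416.5 ± 42.9 and 254 ± 35.6. Under long-term restriction Tmem132d was -0.64 in the larger cluster, where it was not past the threshold, and -1.11 in the smaller. Pde4d was past the threshold in neither cluster under that diet. These are descriptions with no test, as the genes were chosen in this class. The young-to-old difference of Gm816 was 1.00 ± 0.332 in the larger cluster and 0.07 ± 0.269 in the smaller, where young mice had 197 ± 14.8 CPM (n = 2) and old ad libitum mice 202 ± 32.5. The mix of the 2 clusters was not the same in every library: the smaller cluster was a lower share of the class in young mice 2 and 3, in all acutely restricted mice and in long-term mice 1 and 3 than in any old ad libitum mouse. These shares are not a result about the groups, since genes that define the clusters differ between them. The class-level values of Piezo2, Pde4d, Gm816 and Tmem132d, which are higher in the smaller cluster, include whatever difference in mix there was. The within-cluster values compare nuclei assigned to the same cluster. Gm816 is among the leading genes of the smaller cluster and Opalin of the larger. The assignment is thus not independent of genes that differ between groups, and the within-cluster values cannot be taken to hold the mix fixed.

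For Adamts2, Dcc and Gm816, the share of nuclei with at least 1 UMI showed the same order when each nucleus was thinned to 1000 UMIs. Thinning made depth equal, and 98.8% of old ad libitum, 97.6% of acute, 98.8% of long-term and 84.5% of young nuclei were deep enough. The shares here pool nuclei over the mice of a group and carry no spread between mice. Old ad libitum mouse 2 held 1651 of the 2784 old ad libitum nuclei of the class. Adamts2 was seen in 8.51% of thinned old ad libitum nuclei, 3.11% under acute and 3.16% under long-term restriction, against 17.5%, 5.24% and 6.02% before thinning. Dcc was seen in 44% of thinned old ad libitum nuclei, 26.2% under acute and 31.1% under long-term restriction, against 61.5%, 37.2% and 46.4% before thinning. Gm816 was seen in 10.9%, 3.18% and 5.02% after thinning, against 19.9%, 4.97% and 9.11% before. In microglia-like nuclei, taken as a glial class outside the oligodendrocyte lineage, Adamts2 and Gm816 had 1 UMI each in 293 old ad libitum microglia-like nuclei, while Dcc was seen in 19.3% and Pde4d in 38.2% of them after thinning (median 1575 UMIs, beside 2143 in oligodendrocyte-like nuclei). In thinned acute and long-term microglia-like nuclei Dcc was seen in 13.6% and 11.6%. The part of free RNA in the values of Dcc and Pde4d was not tested, and Adamts2 and Gm816 were at or near 0 in this class.

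RNA of other cell types in the oligodendrocyte-like sums was read from lists of marker genes. The summed level of 15 neuronal genes was 3053 to 4176 CPM in old ad libitum, 2873 to 3097 in acutely restricted, 1634 to 4110 in long-term restricted and 751 to 1735 CPM in young libraries, with 14 or 15 of the 15 detected. The summed level of 8 astrocyte genes was 384 to 434 CPM in old ad libitum, 373 to 438 in acute, 353 to 549 in long-term and 270.4 to 458 in young libraries, with 6 to 8 detected. For 8 microglial genes it was 35.5 to 59.1, 49.4 to 69.2, 46.3 to 55.9 and 19.5 to 104 CPM in the same order, with 2 to 8 detected. With the neuronal level as a covariate, the 7 fold changes ran from -3.66 to -0.71 under long-term and -2.70 to -1.07 under acute restriction.

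Levels across the 10 tested classes followed a different order for each gene. Gm816 was a gene of oligodendrocyte-like nuclei: its mean over libraries was 78.7 CPM there and 2.08 CPM in dentate granule neuron-like nuclei, the next class, and 0 UMIs were seen in endothelial-like and mural-like nuclei. Adamts2 was highest in CA1 pyramidal neuron-like nuclei (64.5 CPM) and oligodendrocyte-like nuclei (59.9 CPM), whose means over all groups did not differ beyond their spread between libraries, followed by CA3-like nuclei at 29.4 CPM and precursor-like nuclei at 11.7 CPM. By group the order differed: old ad libitum mice had 98.7 ± 4.85 CPM in oligodendrocyte-like and 60.04 ± 31.6 CPM in CA1-like nuclei (SD, n = 3), and long-term restricted mice had 29.9 ± 10.9 and 85.4 ± 16.8 CPM (n = 4). Tmem132d and Csmd2 were highest in precursor-like nuclei, at 743 and 791 CPM, beside 200.4 and 157 CPM in oligodendrocyte-like nuclei.

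Dcc was 2644 CPM in precursor-like and 2598 CPM in CA3-like nuclei, which did not differ beyond their spread, and 645 CPM in oligodendrocyte-like nuclei as a mean over all groups, from 352 CPM in acutely restricted to 891 CPM in old ad libitum mice. Pde4d was highest in inhibitory neuron-like nuclei at 2332 CPM, and its 697 CPM in oligodendrocyte-like nuclei as a mean over all groups lay within the spread of the neighbouring endothelial-like and microglia-like classes. By group, old ad libitum mice had 1038 ± 129 CPM in oligodendrocyte-like and 574 ± 60.2 CPM in microglia-like nuclei (SD, n = 3), and acutely restricted mice 507 ± 46.05 and 543 ± 62.6 CPM (n = 3). Piezo2 was at 18.5 CPM in precursor-like, 16.01 CPM in CA3-like and 14.2 CPM in oligodendrocyte-like nuclei as means over all groups, which did not differ beyond their spread, and had 0 UMIs in endothelial-like nuclei. By group the order differed: old ad libitum mice had 37.9 ± 21.6 CPM in oligodendrocyte-like and 28.4 ± 21.9 CPM in precursor-like nuclei (SD, n = 3), and long-term restricted mice 2.72 ± 1.49 and 16.4 ± 5.78 CPM (n = 4). Its mean in mural-like nuclei, 29.2 CPM, rested on old ad libitum mouse 1, which held 19 of the 23 UMIs.

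**Figure D2:**
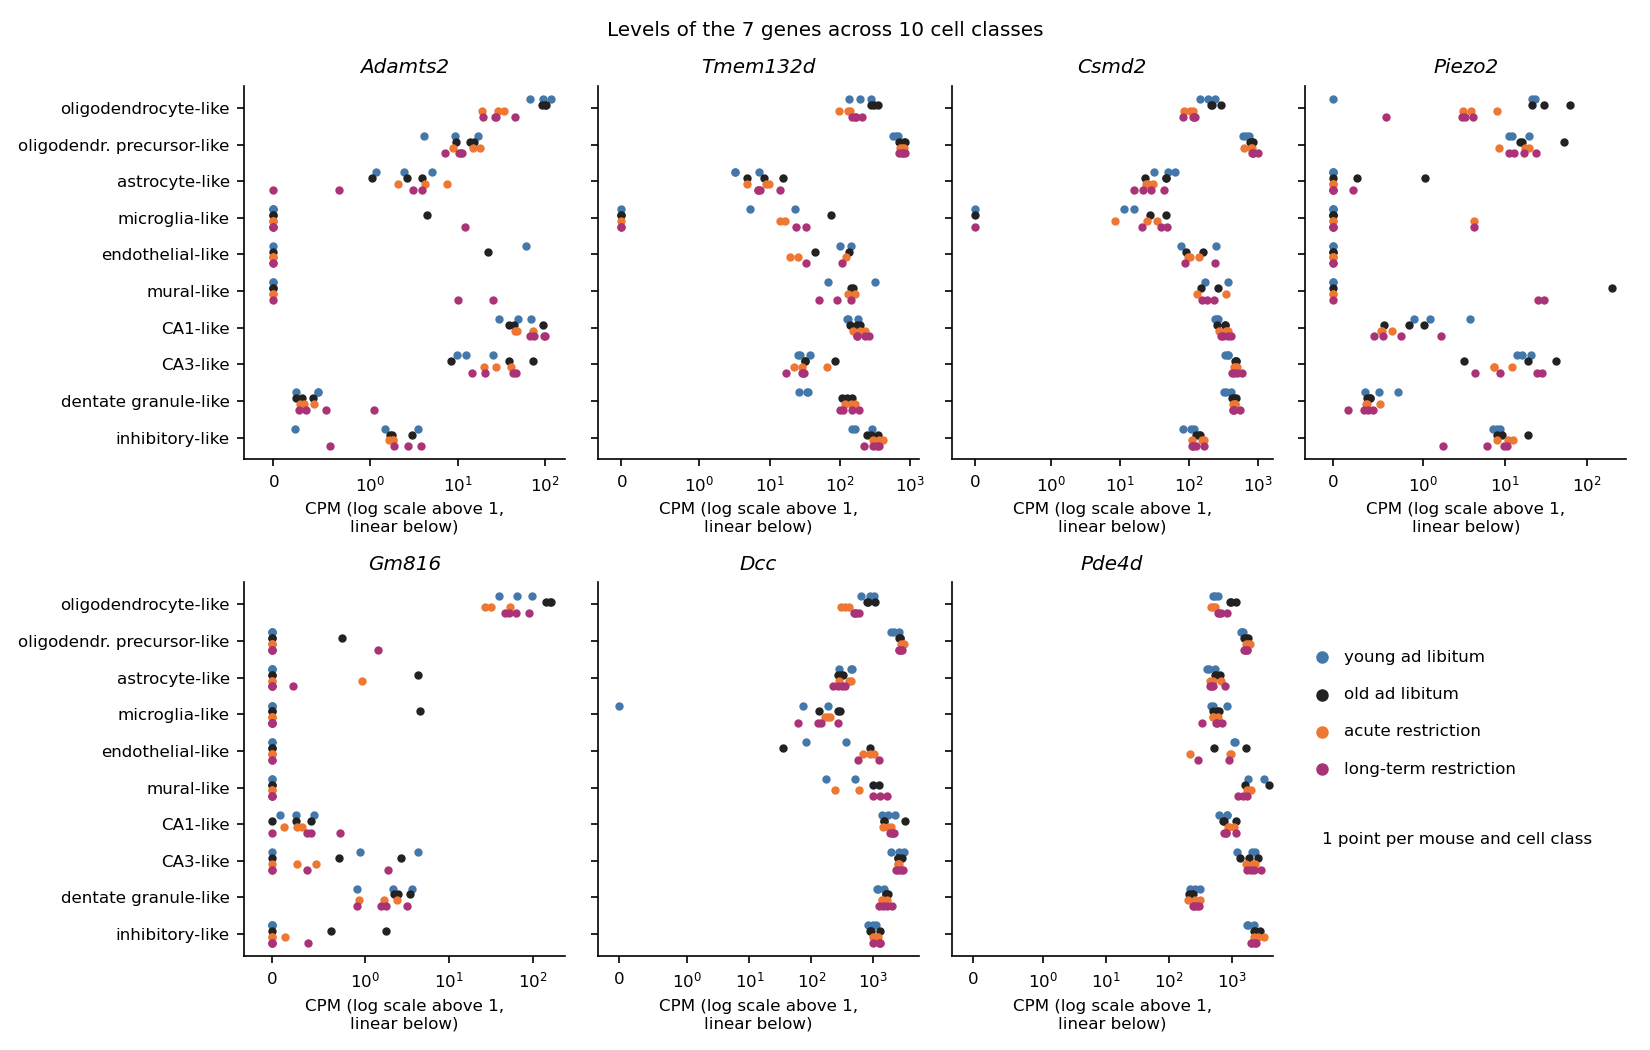
Level of each gene in CPM (log scale above 1, linear below) in 10 cell classes, with 1 point per mouse and class, coloured by group. The Gm816 points above 10 CPM are all oligodendrocyte-like, while Tmem132d, Csmd2 and Dcc reach their highest class means in precursor-like nuclei, at 743, 791 and 2644 CPM.

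Tests in the other 9 classes used nuclei that had no part in the selection. The 7 genes gave 42 gene and class pairs past the filter on low counts, of 63 possible. Under edgeR's quasi-likelihood test, 0 of the 42 pairs passed adjusted p below 0.05 under long-term restriction (0 at an unadjusted p below 0.05, and 0 by DESeq2) and 0 under acute restriction (1 at an unadjusted p below 0.05, Dcc in mural-like nuclei at -1.44 ± 0.571, and 0 by DESeq2). The mural-like Dcc value rests on acutely restricted mice 1 and 3 (18 and 12 UMIs) and old ad libitum mice 1 and 2 (90 and 61 UMIs). Over all genes in the other 9 classes, 0.00812% of tests were called under long-term and 0.0174% under acute restriction, so few calls of any gene were made there. An unadjusted p below 0.05 was reached by 4.22% and 4.24% of them. The pairs split evenly by sign, with 22 lower and 20 higher under each diet, and median log2 fold changes of -0.02 under both. These values do not show that the genes did not change, and the intervals, made from the SE and the degrees of freedom of edgeR's test, give the sizes these data allow.

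Precursor-like nuclei, the nearest tested class by lineage, had the narrower intervals for 4 of the genes. The log2 fold change of Tmem132d was -0.03 (95% interval -0.24 to 0.18) under long-term and -0.04 (-0.26 to 0.19) under acute restriction. Dcc was 0.03 (-0.17 to 0.22) and 0.17 (-0.05 to 0.38), Pde4d was -0.03 (-0.22 to 0.16) and 0.09 (-0.11 to 0.29), and Csmd2 was 0.12 (-0.10 to 0.35) and -0.11 (-0.35 to 0.13). Because the genes were chosen for low values in oligodendrocyte-like nuclei, nothing is read from where these intervals lie beside those values. The difference between the classes was not tested. The intervals of Piezo2 and Adamts2 were wider: Piezo2 was -0.71 (-1.59 to 0.17) and -0.86 (-1.82 to 0.10), and Adamts2 was -0.39 (-1.22 to 0.44) and 0.10 (-0.73 to 0.93).

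In dentate granule neuron-like nuclei Csmd2 was 0.06 (-0.17 to 0.29) under long-term and 0.02 (-0.22 to 0.26) under acute restriction, and Dcc was -0.05 (-0.37 to 0.27) and -0.14 (-0.48 to 0.21). In CA1-like nuclei Adamts2 was 0.51 (-0.25 to 1.27) and -0.11 (-0.92 to 0.70). In CA3-like nuclei Piezo2 was -0.70 (-2.30 to 0.90) and -1.36 (-3.02 to 0.31), and Tmem132d was -0.88 (-1.85 to 0.10) and -0.34 (-1.32 to 0.64); neither gene passed adjusted p below 0.05. Without old ad libitum mouse 2, Dcc in endothelial-like nuclei was called higher under both diets (log2 fold changes of 4.60 and 4.59). The 1 old library then left, of mouse 1, held 4 Dcc UMIs in 44 endothelial-like nuclei and is assumed to vary like the other groups, so nothing is read from these calls.

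**Figure D3:**
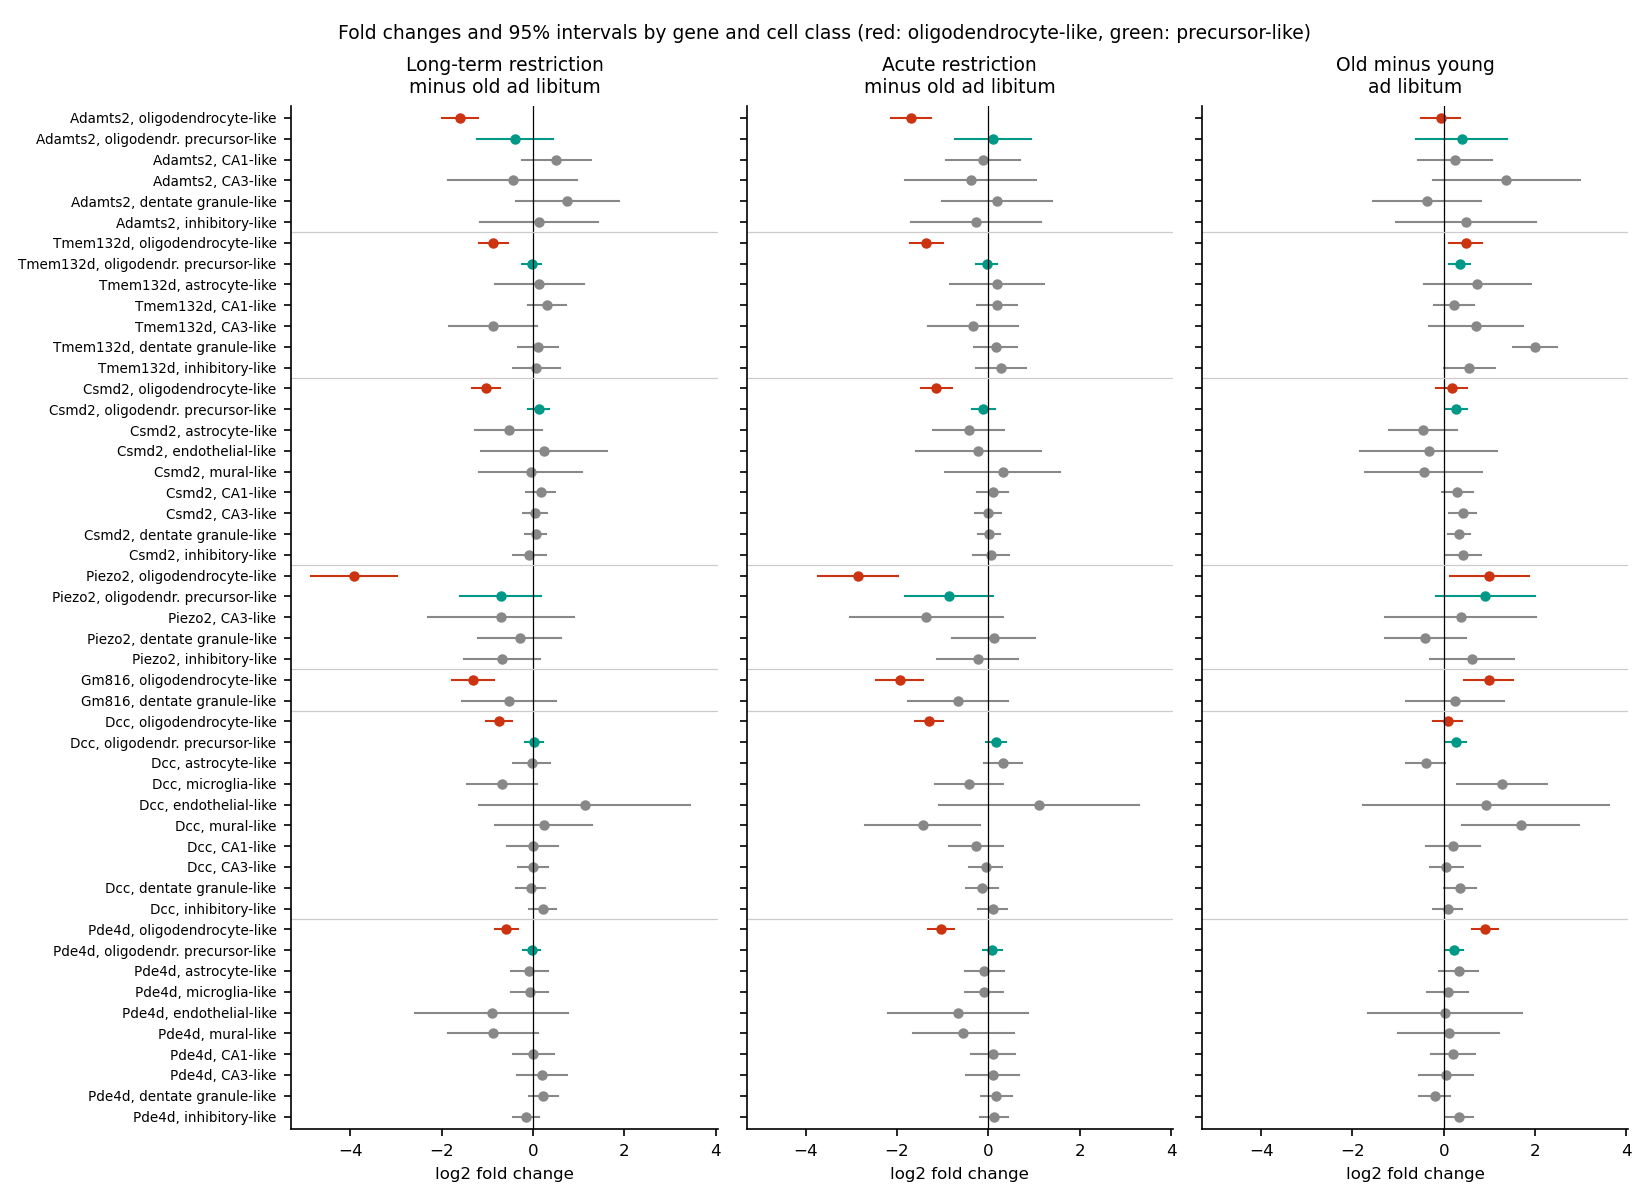
Log2 fold changes (points) and 95% intervals (lines) for every gene and class past the low-count filter, under long-term restriction, acute restriction and ageing. The red oligodendrocyte-like intervals, on which the genes were chosen, lie left of 0 in the first 2 panels; the green precursor-like intervals include 0 there, and Tmem132d in dentate granule-like nuclei stands at 2.00 in the ageing panel.

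With age, 1 of the 42 pairs was called, where 0.759% of tests in these classes were. That share is pooled over all 9 classes and is not that of the called pair's class alone. Tmem132d in dentate granule neuron-like nuclei, the principal neurons of the dentate gyrus, was 26.6, 35.0 and 34.3 CPM in young mice 1 to 3 and 106, 129 and 148 CPM in old ad libitum mice 1, 2 and 4. Every old mouse lay above every young mouse, and the log2 fold change was 2.00 ± 0.226 (edgeR adjusted p 0.00251). With the median UMIs per nucleus as a covariate the value was again 2.00 but was not called (edgeR adjusted p 0.13). Depth of these nuclei was lower in every young than in every old ad libitum library, so that fit cannot tell age from depth. With the gene length trend removed the value was 1.63 and was called (edgeR adjusted p 0.00475). Acutely restricted mice had 121 to 163 CPM and long-term restricted mice 101 to 189.7 CPM, around the old ad libitum values. So Tmem132d, lower under restriction in oligodendrocyte-like nuclei, was 0.10 (-0.34 to 0.54) under long-term and 0.16 (-0.31 to 0.62) under acute restriction in granule neuron-like nuclei. The median ageing value of the 42 pairs was 0.28, beside class medians of -0.044 to 0.015 over all genes, and 12 pairs had an unadjusted p below 0.05, as had 17.5% of all tests in these classes. DESeq2 called 2, adding Csmd2 in dentate granule neuron-like nuclei.

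Genes related to the 7 by family or pathway, from lists that leave the 7 out, were tested in oligodendrocyte-like nuclei. The lists were drawn up with earlier results of these data known, and the same old ad libitum libraries served the selection. Calls of list genes are therefore not independent of it. As above, 0.22% of all genes in this class were called lower under long-term and 1.05% under acute restriction, and 0.782% were called higher under acute restriction. With the median UMIs per nucleus as a covariate, the calls described here were lost for Dscam, P4ha1, Tns3 and Pllp and held for Opalin. The fold changes kept their sign. Acutely restricted and old ad libitum libraries did not overlap in this depth, so the acute values of that fit cannot tell diet from depth. In that fit Dscam was -0.83 under long-term and -0.73 under acute restriction, and under acute restriction P4ha1 was 0.90 and Tns3 -0.43. Of 17 tested genes of netrin and DCC signalling, Dscam, which encodes another netrin receptor and cell adhesion molecule, was lower under both diets, at -0.87 ± 0.173 under long-term (edgeR adjusted p 0.0201) and -0.81 ± 0.189 under acute restriction (edgeR adjusted p 0.0205). Its level was 217 ± 71.8 CPM in old ad libitum (n = 3), 123 ± 26.2 in acute (n = 3) and 115 ± 15.1 in long-term restricted mice (n = 4). Neither call held with the length trend removed (-0.61, edgeR adjusted p 0.139, and -0.55, edgeR adjusted p 0.163). The other 5 netrin receptors of the list, named after their values were seen, did not pass: Neo1 was at -0.07 ± 0.143 and 0.05 ± 0.154 under long-term and acute restriction, and Unc5c at -0.12 ± 0.135 and 0.07 ± 0.144. In the same order Unc5b was at -0.30 ± 0.164 and -0.47 ± 0.178, Unc5a at -0.44 ± 0.395 and 0.12 ± 0.397, and Unc5d at -0.05 ± 0.234 and -0.07 ± 0.254.

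None of the other genes of the ADAMTS family passed edgeR's adjusted threshold: of 9 tested, which were 6 proteases and 3 ADAMTS-like genes whose proteins lack the protease domain, 0 were called under either diet, with 5 under long-term and 4 under acute restriction at an unadjusted p below 0.05 and 0 by DESeq2. Of all genes tested, 9.47% under long-term and 11.4% under acute restriction had such an unadjusted p. Median log2 fold changes were -0.34 and -0.48 over the 6 proteases and -0.47 and -0.53 over the 3 ADAMTS-like genes under long-term and acute restriction, beside 0.00 and -0.01 over all genes tested. Of 6 procollagen genes and their processing enzymes, P4ha1, which encodes a subunit of the collagen prolyl hydroxylase, was higher under acute restriction (0.97 ± 0.229, edgeR adjusted p 0.0273). Its call was lost with the length trend removed (0.97, edgeR adjusted p 0.0606).

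Of 6 tested CUB and sushi domain genes, edgeR called 0 under either diet, with 3 under long-term and 1 under acute restriction at an unadjusted p below 0.05 and 0 by DESeq2. Of 4 mechanically gated channels edgeR again called 0, with 1 at an unadjusted p below 0.05 under each diet and 0 by DESeq2, and of 2 TMEM132 genes 0, with 0 at that p and 0 by DESeq2. Of 31 genes of cyclic AMP synthesis, breakdown and response edgeR called 0, with 4 under long-term and 2 under acute restriction at an unadjusted p below 0.05 and 0 by DESeq2. Pde4b, the related phosphodiesterase gene, named after its values were seen, was -0.01 ± 0.106 under long-term and -0.07 ± 0.113 under acute restriction. Of 8 genes of newly formed oligodendrocytes, Tns3, which encodes a focal adhesion protein, was lower under acute restriction (-0.54 ± 0.139, edgeR adjusted p 0.0365), a call not made by DESeq2 or with the length trend removed (-0.39).

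Of 26 tested genes of mature oligodendrocytes, Opalin and Pllp, which encode membrane proteins of oligodendrocytes and myelin, were lower under both diets and the other 24 did not pass the test. Opalin was 308 ± 20.1 CPM in old ad libitum, 114 ± 19.8 in acute and 166 ± 32.9 in long-term restricted mice, with log2 fold changes of -1.39 ± 0.159 (edgeR adjusted p 4.98e-06) and -0.92 ± 0.143 (edgeR adjusted p 0.00135). Pllp was -1.20 ± 0.209 (edgeR adjusted p 0.00136) and -1.06 ± 0.189 (edgeR adjusted p 0.0102) in the same order, and these calls of both genes held with the length trend removed. With the median UMIs per nucleus as a covariate Pllp was -0.91 under both diets (edgeR adjusted p 0.14 under acute and 0.0517 under long-term restriction), and Opalin was -1.25 and -0.85 (edgeR adjusted p 0.00242 and 0.0222). Opalin was also among the 10 leading genes of the larger cluster. Mbp and Mog were named after their values were seen. Mbp, which encodes myelin basic protein, was -0.02 ± 0.110 under acute and 0.07 ± 0.102 under long-term restriction, and Mog was -0.04 ± 0.115 and 0.07 ± 0.107. The median of the 26 genes was -0.14 under acute and 0.01 under long-term restriction, beside -0.01 and 0.00 over all genes tested.

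The 7 genes varied together over the 13 oligodendrocyte-like sums, as a set chosen for one pattern must. Pearson's r of log2 CPM between members ranged from 0.338 to 0.955 over 21 pairs, with a median of 0.708; the sums share libraries and depth. The tested genes most like each member were named by the highest r, up to 3 for each. For Adamts2 these were Csmd2 (0.955), Hip1r (0.954) and Adam12 (0.940), and for Csmd2 they were Adamts2, Adam12 (0.953) and Mark1 (0.924). For Gm816 they were Tmem132d (0.922), Hivep3 (0.920) and Thsd4 (0.916), and for Tmem132d they were Gm816, Sema5a (0.916) and Xkr4 (0.909). Dcc was most like Tns3 (0.949), Gm5535 (0.907) and Tnni1 (0.907), Pde4d most like Hivep3 (0.916), Cadm2 (0.904) and A230057D06Rik (0.892), and Piezo2 most like Rasal1 (0.880) and Larp6 (0.870).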

How the data were processed

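Nuclei from whole frozen hippocampus were sorted on Hoechst stain and made into 10x Genomics 3′ libraries, 1 per mouse, per the labels' protocols. The deposited values are UMI counts per gene and barcode, not normalised, made with Cell Ranger 4.0.0 and the mm10 build per the submitters' processing notes. The counting of introns and strand is not given in the sources used here. The labels number the mice of a group but do not say whether tissue was processed together, so p-values measure the spread between these libraries.

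Of 105759 barcodes, 105427 had at least 500 genes and at most 5% mitochondrial counts. Barcodes of each library were ranked by Scrublet score, and the highest were removed up to a fixed share of 0.8% per 1000 barcodes. This took out 7386 barcodes (7.01%). Each of the 78 pairs of libraries shared 4 to 40 barcode sequences, at most 0.471%. Nuclei were clustered with scanpy 1.11.5 and leidenalg 0.10.2 (2000 variable genes, 30 components, 20 neighbours, resolution 1.0) into 37 clusters, of which 23 were named from marker genes and 15587 nuclei stayed unnamed. A first reference for marker folds, weighted by barcodes, left oligodendrocyte cluster 13 and granule neuron clusters 0, 3 and 10 unnamed, and it was replaced after this was seen.

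Counts were summed per mouse and class where a mouse had at least 20 nuclei, and tested with edgeR 4.0.16 in R 4.3.3 (quasi-likelihood test, TMM factors, edgeR's filter on low counts, 1 fit over all 4 groups per class, Benjamini-Hochberg adjustment over all genes of the class). Log2 CPM used a prior count of 2, and the fits used edgeR's default prior count. The SE is the fold change over the root of the F statistic, and 95% intervals use the t distribution at the test's total degrees of freedom. DESeq2 1.42.0 was an alternative. Fold changes compare each restricted group and the young mice with old ad libitum mice, with ageing as old minus young. Levels in CPM use the scaled library sizes. The fit was tested on simulated counts. Alternatives were other size factors, no filter, thinned nuclei, covariates for depth, neuronal RNA and library number, removal of the gene length trend (a span was found for 99.8% of genes), single clusters and each mouse left out.

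The 7 genes and the gene lists were chosen with earlier results of these data known. Named genes are the 7 members, pairs of member and class called outside oligodendrocyte-like nuclei, called genes of each list (at most 4 per list and contrast) and the 3 genes most correlated with each member, of which 1 is not reported here. Others are said in place to be named after their values were seen.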

Additional observations from a re-analysis of the deposited data

How the results depend on the processing

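Counts of the 7 genes at edgeR's adjusted p below 0.05 in oligodendrocyte-like nuclei depended on the setting under long-term restriction (7 genes): 3 with the median UMIs per nucleus as covariate, 4 with the length trend removed, 4 in the larger cluster alone (6 genes tested) and 3 to 7 with 1 mouse left out. With age (2 genes) the count was 4 with no filter on low counts, 0 with the median UMIs as covariate, 1 in the larger and 0 in the smaller cluster alone, and 1 to 3 with 1 mouse left out. With the length trend removed it was 2, but of other genes and lower with age (Csmd2 and Dcc), and Gm816 and Pde4d no longer passed. Between the diets (0 genes), Dcc passed with no filter and in the smaller cluster alone, 1 gene each time. The log2 ageing values that turned below 0 with the length trend removed were -0.50 for Csmd2, -0.82 for Dcc, -0.22 for Tmem132d and -0.060 for Pde4d. With the median UMIs as covariate the ageing value of Csmd2 also turned below 0 (-0.29), in a fit that cannot tell age from depth. That of Adamts2 turned above 0 with a replicate block (0.15) and in the smaller cluster alone (0.14). Not every setting that changed a count or a direction is listed, and the cause was not tested.

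In the other classes with age (1 pair of gene and class), 3 pairs passed with no filter, 2 by DESeq2, 2 with a term for the libraries numbered 1, 0 with the median UMIs as covariate, 2 with doublets kept and 1 to 2 with 1 mouse left out. Tmem132d in granule neuron-like nuclei kept its value (2.00) but not its call with the median UMIs as covariate (edgeR adjusted p 0.13). With the length trend removed its value was 1.63 and the call held (edgeR adjusted p 0.00475). Under each diet 0 to 1 pairs passed with 1 mouse left out.

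Mice of different groups share numbers in the labels, and the labels do not say that a number marks a shared batch. Correlations of deviations ran from -0.0736 to 0.183 over 16 pairs of libraries with the same number (median 0.107, 9 above 0.1) and from -0.204 to 0.222 over 47 pairs with different numbers (median -0.0585, 9 above 0.1), and 7 of 13 libraries correlated best with their own number. Not every same-numbered pair was above 0.1, so the numbers were not taken to pair the mice. The libraries numbered 1 nevertheless stood together across the groups. Their correlations with each other ran from 0.0856 to 0.178, and all those with libraries of other numbers were negative. They also held the fewest oligodendrocyte-like nuclei of their groups. What they share is not given in the labels. With a replicate block, 7 genes passed under both diets in oligodendrocyte-like nuclei, 3 with age, and 4 pairs with age in the other classes. Depth limits Piezo2 most, with 16 UMIs in all long-term restricted mice, and DESeq2 gave no adjusted p for it there.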

Other observations

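Classes with too few nuclei per mouse for a test held some of the 7 genes at other levels, pooled over all mice with exact 95% counting intervals. In 796 fibroblast-like nuclei Adamts2 stood at 181 CPM (164 to 199.8) and Piezo2 at 196 CPM (178 to 215), and Gm816 had 1 UMI. In 90 committed oligodendrocyte precursor-like nuclei, the stage between precursor and oligodendrocyte, Tmem132d stood at 568 CPM (499 to 644.5), Csmd2 at 589 CPM (519 to 667), Dcc at 634 CPM (561 to 714) and Pde4d at 1979 CPM (1848 to 2118). Adamts2 and Gm816 had 1 UMI each among the 425903 UMIs of those nuclei. In 334 Cajal-Retzius neuron-like nuclei Dcc stood at 2189 CPM (2085 to 2297) and Csmd2 at 367 CPM (325 to 413), while Adamts2, Piezo2 and Gm816 had 0 UMIs. The intervals cover counting error only, and these pooled values include no spread between mice.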
